A study of Mus musculus with 8 samples.

Results

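The inferior and the superior region of the hyperoxia-exposed mouse retina were compared across all 28853 probe sets of a whole-transcript array. The samples were chosen by their titles alone, and they made up 4 of the 8 arrays of the series, 2 from each region. The mice were of the strain C57BL/6J, a pigmented laboratory strain, had been raised in dim cyclic light, and were kept in 75% oxygen for 14 days from an age of 83 to 90 days. The other 4 arrays held both regions from control mice of the same strain, kept in the same light under normoxia and killed at the same age. In both conditions each sample pooled 2 animals, a male and a female, and held all of one retinal region, so that all its cell types were measured together. Whether 2 samples with equal replicate numbers share their animals is not said in the labels. The p-values below therefore measure the spread between these pools and nothing wider, and 2 arrays in each group limit the precision of every value.

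Superior is the dorsal and inferior the ventral side of the eye. These sides are set apart during development by transcription factors, with Tbx5 on the dorsal and Vax2 on the ventral side. In the adult mouse, cones of the ventral retina are rich in the short-wave opsin. Photoreceptors under stress can release factors such as endothelin-2. Muller cells, the main glia of the retina, answer with the intermediate filament Gfap and with signalling through Stat3, and microglia, the resident phagocytes, remove debris and are a source of complement.

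The values are log2 expression levels as deposited, and a difference of 1 on this scale is a fold difference of 2. The median level of the 8 arrays lay between 6.98 and 7.05. Among the exposed retinas, 40 of the 28853 probe sets, which is 0.139%, passed limma's test between the regions (adjusted p under 0.05), while 2452 had an unadjusted p under 0.05. Of these 40, 36 were higher in the inferior retina (0.125% of all probe sets) and 4 were lower (0.0139%). They stand for 34 genes that could be named, 31 higher (0.155% of 19938 genes) and 3 lower (0.015%), 1 further probe set of the gene *Ccdc180*, 2 probe sets with several symbols and 3 without one. Their differences ranged from 0.66 to 1.56 among the higher and from -0.76 to -1.32 among the lower probe sets, with standard errors of 0.08 to 0.18. The 40 are not a random draw with respect to the study, whose tables were chosen on these samples. By symbol, 33 of the 34 named genes are in those tables, and *H2-Q4* is not. Its changes with hyperoxia in both regions are close to those the study lists for a transcript without a gene symbol. It may therefore be in the tables too. The count depended on single arrays. Leaving out either of the control superior arrays gave 18, leaving out hyperoxia superior replicate 1 gave 69, of which 18 were among the 40, and leaving out hyperoxia superior replicate 2 gave 0. Fits lacking replicate 1 or replicate 2 of the exposed inferior retina gave 3 and 1.

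**Figure D1:**
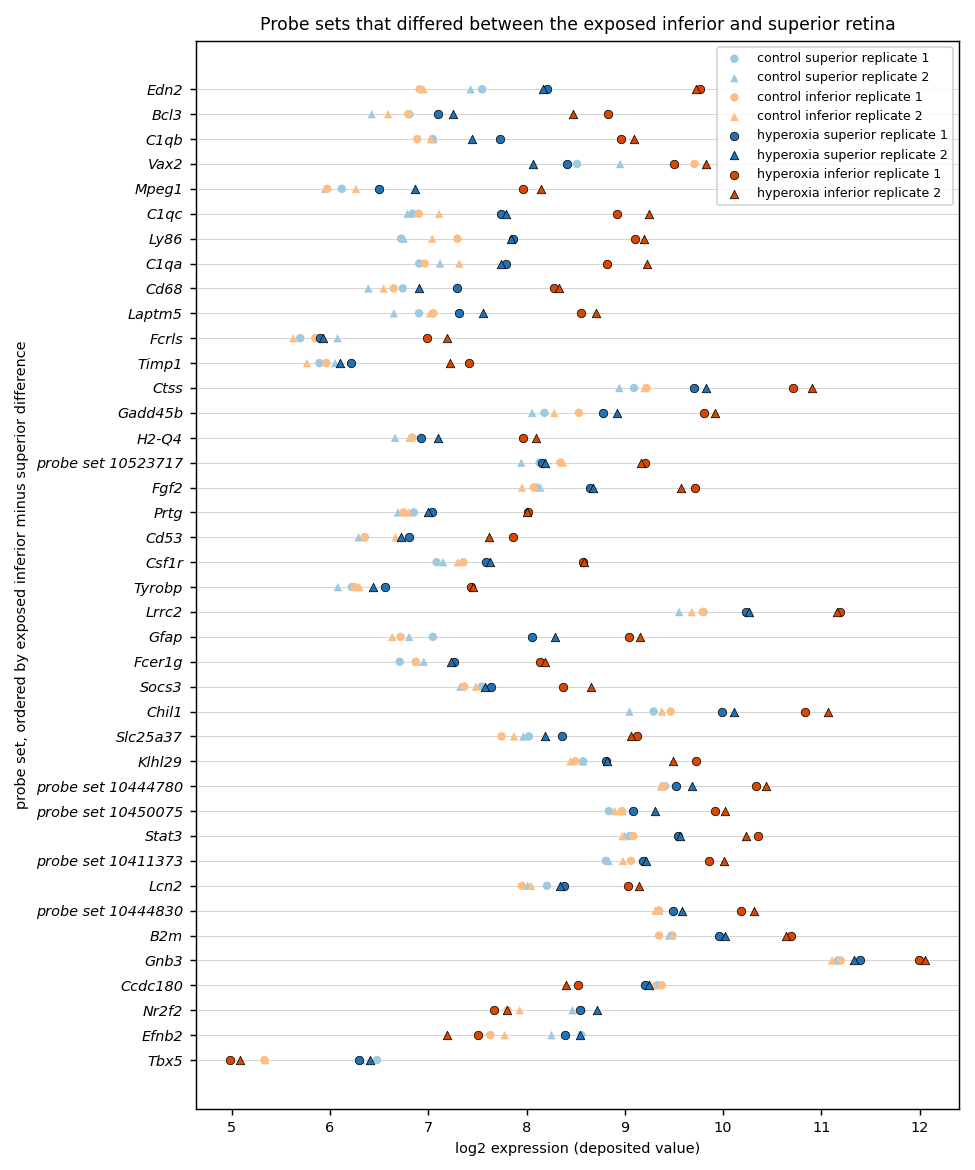
Log2 expression (horizontal axis) on each of the 8 arrays for the 40 probe sets that passed limma's test between the exposed regions (vertical axis, ordered by the difference); circles are replicate 1, triangles replicate 2, dark symbols exposed and light symbols control retina. The exposed inferior arrays lie to the right of the exposed superior arrays for 36 probe sets and to the left for 4, and *Edn2* is at 9.76 and 9.72 against 8.20 and 8.17.

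The region labels could be checked against genes of known position. *Tbx5*, the transcription factor of the dorsal eye, read 6.29 and 6.41 on the exposed superior arrays and 4.99 and 5.09 on the exposed inferior arrays. The inferior arrays were both lower, with no overlap, and the difference of -1.32 (standard error 0.10, 95% interval -1.53 to -1.10) had an adjusted p = 0.00649 from limma. *Vax2*, its counterpart in the ventral eye, read 8.41 and 8.06 on the superior and 9.50 and 9.83 on the inferior arrays. Here the inferior arrays were both higher, by 1.43 (standard error 0.18, adjusted p = 0.0335). *Opn1sw*, the short-wave cone opsin, read 11.06 and 10.45 on the superior and 12.16 and 12.12 on the inferior arrays. *Opn1mw*, the medium-wave cone opsin, read 11.55 and 11.55 on the superior and 11.03 and 10.62 on the inferior arrays. Neither opsin passed the test, at differences of 1.38 (adjusted p = 0.0603) and -0.73 (adjusted p = 0.163), but for both the arrays of the regions did not overlap and stood in the order of the labels.

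Of 14 genes that mark or pattern the superior eye, 3 were lower in the exposed inferior retina and 0 higher, against 0.015% and 0.155% of all genes. The list had a median of -0.31, against 0.01 over all genes. Without overlap, 10 were lower and 0 higher (71.4% and 0%, against 17.5% and 20.4% of all genes). Besides *Tbx5*, the 3 that passed were *Efnb2*, an ephrin that guides axons to their targets in the brain, and *Nr2f2*, an orphan nuclear receptor of the dorsal retina. *Efnb2* read 8.39 and 8.54 on the superior and 7.51 and 7.19 on the inferior arrays, a difference of -1.12 (standard error 0.14, adjusted p = 0.0335). *Nr2f2* read 8.54 and 8.72 on the superior and 7.67 and 7.80 on the inferior arrays, a difference of -0.90 (standard error 0.10, adjusted p = 0.0233). For each of these 3 genes both inferior arrays lay under both superior arrays. *Aldh1a1*, which makes retinoic acid in the dorsal retina, had a difference of -1.05 with an adjusted p = 0.437. Of 13 genes listed for the inferior eye, *Vax2* alone passed the test, against 0.155% of all genes higher and 0.015% lower. That list had a median of 0.03. Without overlap, 6 were higher and 1 lower (46.2% and 7.69%, against 20.4% and 17.5% of all genes). *Crym*, a thyroid hormone binding protein that is also in the Muller cell list, had a difference of 0.77 (adjusted p = 0.179). In the control retina its difference was -0.08 and the regions overlapped, so the controls gave it no inferior lean. All 3 lower genes and *Vax2* are in the study's tables.

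The same contrast in the control retinas takes its means from the other 4 arrays, while its test shares the residual variance of all 8. There 0 probe sets passed limma's test and 1529 had an unadjusted p under 0.05. The control differences of *Tbx5*, *Efnb2*, *Nr2f2* and *Vax2* were -1.06, -0.70, -0.65 and 0.88, each with the sign seen in the exposed retina. Among the 36 probe sets higher in the exposed inferior retina, the control difference ranged from -0.56 to 0.88 with a median of 0.04, and it was above 0 for 22 and below 0 for 14. For each of the 40 the exposed difference was the larger in size. The 40 were chosen by their exposed difference, so this was largely fixed in advance and does not show a change with exposure. Whether the regional difference itself differed between exposed and control retinas was tested with an interaction term over all probe sets, which 1 of 28853 passed (0.00347%), with 1744 at an unadjusted p under 0.05. That probe set was *Edn2*; for the other 39 the exposed and the control differences were not shown to differ (adjusted p from 0.129 upward). Over all probe sets, 285 were higher by more than 0.5 in the exposed inferior retina and 186 lower, against 168 and 81 in the control retina. By more than 1, 23 were higher and 6 lower, against 24 and 4 in the control retina. These counts rest on no test, and the control inferior replicate 2 had high lens transcripts (below).

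**Figure D2:**
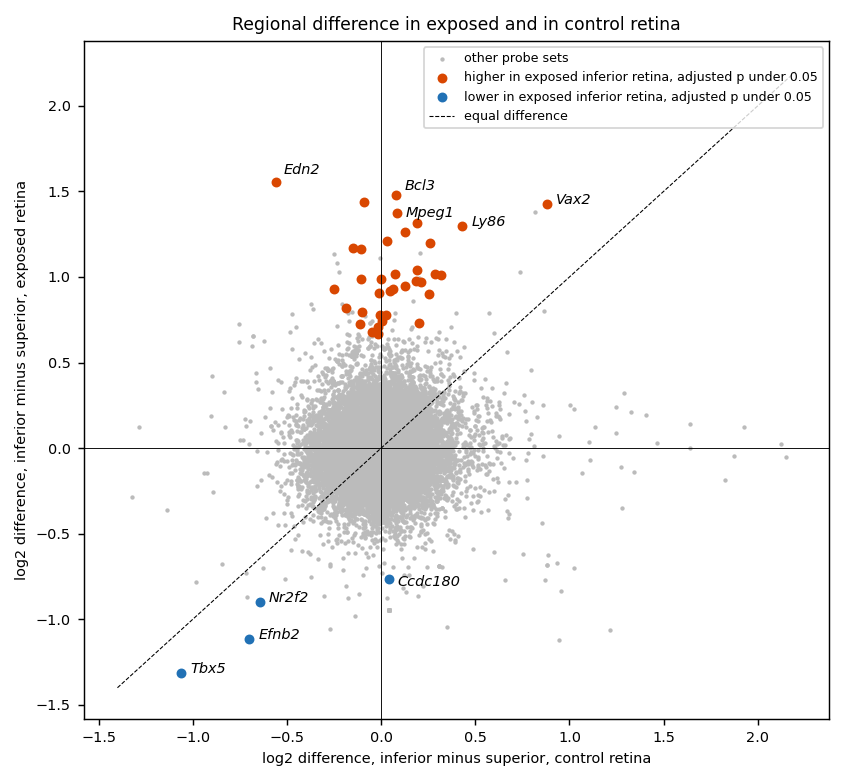
Difference between inferior and superior retina on the log2 scale in control (horizontal axis) and in exposed mice (vertical axis); each point is 1 of 28853 probe sets, coloured points passed limma's test in the exposed retina, and the dashed line marks an equal difference. *Tbx5*, *Efnb2*, *Nr2f2* and *Vax2* lie in the quadrants of equal sign, *Edn2* lies at -0.56 and 1.56, and most of the higher probe sets lie near 0 on the control axis.

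*Edn2*, which encodes the peptide endothelin-2, had the largest difference of all probe sets. It read 8.20 and 8.17 on the exposed superior and 9.76 and 9.72 on the exposed inferior arrays, so that the regions differed by many times the spread between replicates. The difference was 1.56 (standard error 0.09, 95% interval 1.36 to 1.75), a fold difference of 2.94, with an adjusted p = 0.00132 from limma. In the control retina it read 7.55 and 7.43 on the superior and 6.91 and 6.95 on the inferior arrays, where the inferior retina had the lower values. The exposed difference exceeded the control difference by 2.11 (standard error 0.12, adjusted p = 0.00186). Of 9 measured genes of the endothelin pathway *Edn2* alone passed the test, and the median of the list was -0.06. The other 2 ligands, *Edn1* and *Edn3*, had differences of -0.18 and -0.24, the receptor gene *Ednrb*, which Muller cells use, had one of -0.14, and the converting enzymes *Ece1* and *Ece2* had 0.06 and 0.05; none of them passed. *Edn2* also passed in 7 of the 8 fits that left out 1 array, and had an adjusted p = 0.0513 without hyperoxia superior replicate 2.

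Part of the phagocyte genes were higher in the exposed inferior retina. Of 38 genes that microglia and other phagocytes share, 9 were higher and 0 lower, against 0.155% and 0.015% of all genes. The median difference was 0.38, against 0.01 over all genes. For 32 of the 38 the inferior arrays lay above the superior arrays without overlap, against 20.4% of all genes (0 lay below, against 17.5%). The 9 are *Mpeg1*, *Ly86*, *Cd68*, *Laptm5*, *Ctss*, *Cd53*, *Csf1r*, *Tyrobp* and *Fcer1g*; all 9 are in the study's tables and are not independent evidence of its direction. *Csf1r*, the receptor on which microglia depend for survival, read 7.59 and 7.62 on the superior and 8.57 and 8.58 on the inferior arrays. Its difference of 0.97 (standard error 0.08, 95% interval 0.78 to 1.16) had an adjusted p = 0.00944, and the arrays of the regions were far from overlapping. *Mpeg1*, a pore-forming protein of macrophages, read 6.49 and 6.87 on the superior and 7.97 and 8.14 on the inferior arrays, a difference of 1.37 (standard error 0.15, adjusted p = 0.0204). *Cd68*, a membrane protein of phagocyte lysosomes, read 7.29 and 6.90 on the superior and 8.28 and 8.33 on the inferior arrays, a difference of 1.21 (standard error 0.15, adjusted p = 0.0335). *Tyrobp* and *Fcer1g*, adaptors that pass signals from surface receptors of myeloid cells, differed by 0.95 (adjusted p = 0.0126) and 0.92 (adjusted p = 0.0204). In bulk RNA, more cells of a type and more RNA per cell cannot be told apart.

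Not every phagocyte gene showed such a difference. *Spi1*, the transcription factor PU.1 of myeloid cells, read 4.94 and 4.72 on the superior and 4.94 and 4.75 on the inferior arrays, a difference of 0.02 (95% interval -0.27 to 0.30), at a level where probe sets were counted as dim. Of 18 markers of homeostatic microglia, *Fcrls*, a scavenger receptor-like protein of microglia, alone passed the test. It read 5.90 and 5.93 on the superior and 6.99 and 7.18 on the inferior arrays, a difference of 1.17 (standard error 0.14, adjusted p = 0.0297), and it too is in the study's tables. The list had a median of 0.22, and 11 of the 18 were higher and 0 lower without overlap (61.1% and 0%, against 20.4% and 17.5% of all genes). *Cx3cr1*, the fractalkine receptor, had a difference of 0.45 (adjusted p = 0.443) with no overlap between the regions, and *Tmem119*, a surface protein of microglia, had one of 0.03 (95% interval -0.24 to 0.31). Of 19 markers of the disease-associated state of microglia, 0 passed, with a median of 0.40, and 13 were higher and 1 lower without overlap, against 20.4% and 17.5% of all genes; the largest was *Cst7*, a cystatin of these cells, which read 5.00 and 5.50 on the superior and 6.15 and 6.58 on the inferior arrays (difference 1.11, adjusted p = 0.105).

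None of the markers of other blood cells passed the test. Of 20 genes of lymphocytes, neutrophils and natural killer cells, 2 were higher and 4 lower without overlap (10% and 20% of the list, against 20.4% and 17.5% of all genes), and the median was -0.05. The neutrophil marker *Ly6g* lay between 4.02 and 4.48 on all 8 arrays, *S100a8*, another gene of neutrophils, between 4.43 and 4.86, and *Ccr2*, the receptor of infiltrating monocytes, between 3.05 and 3.30, each under the level of 6 below which a probe set was counted as dim. On each array, the median of a list's members relative to their own means over all arrays gives the level of that list. For the shared phagocyte genes it was -0.31 to -0.17 on the control arrays, 0.02 and -0.01 on the exposed superior arrays and 0.42 and 0.42 on the exposed inferior arrays.

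The 3 chains of C1q, the molecule that starts the classical complement pathway, were all higher in the exposed inferior retina. *C1qa* read 7.79 and 7.74 on the superior and 8.82 and 9.22 on the inferior arrays (difference 1.26, standard error 0.16, adjusted p = 0.0335). *C1qb* read 7.73 and 7.45 on the superior and 8.96 and 9.09 on the inferior arrays (difference 1.44, standard error 0.12, adjusted p = 0.00697). *C1qc* read 7.74 and 7.79 on the superior and 8.92 and 9.24 on the inferior arrays (difference 1.31, standard error 0.12, adjusted p = 0.0117). The regions did not overlap for any chain, and the 3 differences lay within 0.18 of each other, which is near their standard errors. In the control retina the chains differed by 0.13, -0.09 and 0.19. They were the only members of a list of 25 complement genes to pass, against 0.155% of all genes higher and 0.015% lower. The median of that list was 0.09, or -0.0088 without hyperoxia inferior replicate 2. Without overlap, 10 were higher and 4 lower (40% and 16%, against 20.4% and 17.5% of all genes). The receptor *C3ar1* had a difference of 0.80 (adjusted p = 0.143), *C4b*, of the step after C1q, had 0.32 (adjusted p = 0.573), and *Cfi*, a protease that limits complement, had -0.35 (adjusted p = 0.54). The C1q genes are in the study's tables.

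Of 18 genes of antigen presentation by MHC class I, *H2-Q4* and *B2m* were higher and 0 lower, against 0.155% and 0.015% of all genes. The median of that list was 0.13, or 0.059 without hyperoxia inferior replicate 2. Without overlap, 10 were higher and 1 lower (55.6% and 5.56%, against 20.4% and 17.5% of all genes). *H2-Q4*, a class I heavy chain, read 6.93 and 7.10 on the superior and 7.97 and 8.09 on the inferior arrays, a difference of 1.02 (standard error 0.10, adjusted p = 0.015). *B2m*, the light chain shared by class I molecules, read 9.95 and 10.02 on the superior and 10.69 and 10.64 on the inferior arrays, a difference of 0.68 (standard error 0.09, adjusted p = 0.0376). Class I heavy chain genes are closely alike in sequence, so probes of *H2-Q4* may also have bound transcripts of its relatives. Probe sets with several symbols or none were not placed in gene lists. The called probe sets 10444780 and 10450075, with several symbols, and 10444830, with none, had differences of 0.78, 0.78 and 0.71. Their changes with hyperoxia in both regions are close to those the study lists for *H2-D1*, *H2-K1* and *H2-Q7*, so they may be further heavy chains. Among the genes of peptide supply, *Psmb8*, a subunit of the immunoproteasome, had a difference of 0.29 and *Tap1*, a peptide transporter, one of 0.15, and neither passed. Of 30 genes of the interferon response 0 passed, while for 19 the inferior arrays lay above the superior arrays (63.3%, against 20.4% of all genes) and for 0 below (against 17.5%); the median was 0.28, or 0.18 without hyperoxia inferior replicate 2. *Irf9*, a component of the interferon transcription factor, came nearest, at 7.90 and 7.90 on the superior and 8.39 and 8.59 on the inferior arrays (difference 0.59, adjusted p = 0.0884).

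Of 34 genes of cytokines, chemokines and their receptors 0 passed, and the median was 0.07. Without overlap, 15 were higher and 3 lower (44.1% and 8.82%, against 20.4% and 17.5% of all genes). *Ccl3*, a chemokine of activated microglia, read 5.49 and 5.72 on the superior and 6.40 and 6.49 on the inferior arrays (difference 0.84, adjusted p = 0.208). *Tnfaip3*, an inhibitor of NF-kappaB signalling, had a difference of -0.58 (adjusted p = 0.29) with both inferior arrays lower.

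**Figure D3:**
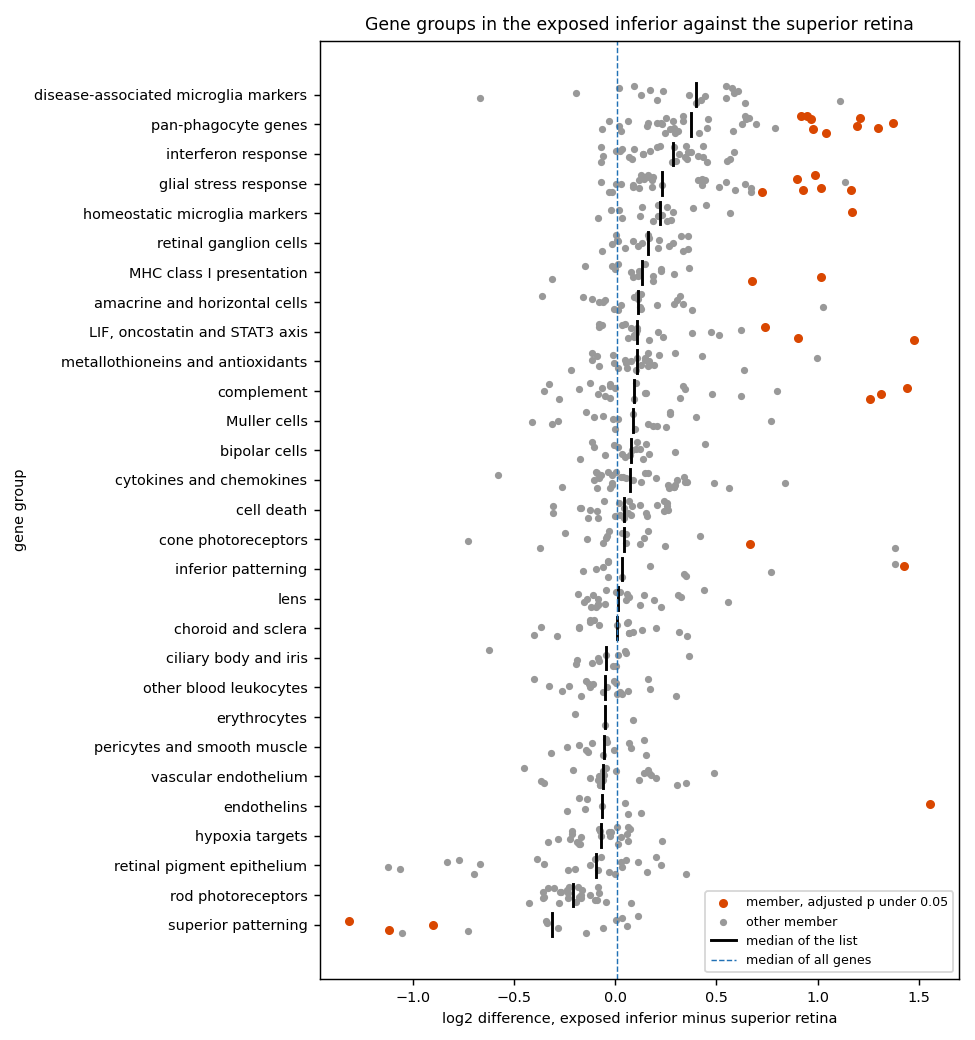
Difference between exposed inferior and superior retina on the log2 scale (horizontal axis) for the members of 29 gene groups (vertical axis, ordered by their medians); each point is a gene, coloured where it passed limma's test, bars mark the median of each group and the dashed line the median of all genes. The shared phagocyte genes have a median of 0.38 with 9 coloured points, rods one of -0.21 and superior patterning one of -0.31 with 3 coloured points.

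Some genes of the stress response of retinal glia were also higher. Of 35 genes in this list, 6 were higher in the exposed inferior retina and 0 lower, against 0.155% and 0.015% of all genes. The median was 0.23, and 23 were higher and 1 lower without overlap (65.7% and 2.86%, against 20.4% and 17.5% of all genes). The 6 that passed are all in the study's tables and are not independent evidence. *Gfap*, the intermediate filament of reactive Muller cells and astrocytes, read 8.05 and 8.29 on the superior and 9.04 and 9.16 on the inferior arrays. Its difference was 0.93 (standard error 0.12, 95% interval 0.66 to 1.20, adjusted p = 0.0335), with no overlap. *Timp1*, an inhibitor of matrix proteases, read 6.21 and 6.10 on the superior and 7.42 and 7.22 on the inferior arrays, a difference of 1.16 (standard error 0.11, adjusted p = 0.0126). *Fgf2*, a growth factor that protects photoreceptors, read 8.64 and 8.67 on the superior and 9.72 and 9.57 on the inferior arrays, a difference of 0.99 (standard error 0.09, adjusted p = 0.0117). Both *Timp1* and *Fgf2* were higher on each inferior array than on any other array of the series. The other 3 were *Gadd45b*, of the response to DNA damage, at 1.02 (adjusted p = 0.0204), *Chil1*, a chitinase-like protein of glia and macrophages, at 0.90 (adjusted p = 0.0437), and *Lcn2*, an iron-trafficking protein of acute inflammation, at 0.73 (adjusted p = 0.0456). *S100a6*, a calcium-binding protein, had the second largest difference of the list, 1.14, with an adjusted p = 0.057.

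Several genes of cytokine signalling through Stat3, the pathway through which LIF and oncostatin act on Muller cells, were higher. Of 22 genes in this list 3 were higher and 0 lower, against 0.155% and 0.015% of all genes. The median was 0.11, and 9 were higher and 0 lower without overlap (40.9% and 0%, against 20.4% and 17.5% of all genes). *Stat3*, the transcription factor itself, read 9.54 and 9.56 on the superior and 10.35 and 10.23 on the inferior arrays, a difference of 0.74 (standard error 0.09, adjusted p = 0.0297). *Socs3*, which is induced by Stat3 and inhibits it, read 7.64 and 7.57 on the superior and 8.37 and 8.65 on the inferior arrays, a difference of 0.91 (standard error 0.12, adjusted p = 0.0443). *Bcl3*, a nuclear partner of NF-kappaB, read 7.10 and 7.25 on the superior and 8.83 and 8.48 on the inferior arrays, a difference of 1.48 (standard error 0.16, adjusted p = 0.0204). None of the 3 overlapped between the regions, and all are in the study's tables. Of the cytokines, *Lif* had a difference of 0.17 (95% interval -0.25 to 0.59) and *Osm* one of -0.08, and of the receptors *Osmr* had 0.62 (adjusted p = 0.0881), *Il6st*, the signalling chain they share, 0.47 (adjusted p = 0.249) and *Lifr* 0.11; none of these passed.

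The start regions of the called genes were searched for short motifs of transcription factors on both strands. Windows of 300 bases, from 250 bases before to 50 after the start, were at hand from RefSeq (build GRCm38.p6) for 28 of the 35 genes with a called probe set, 25 higher and 3 lower. The STAT motif TTCNNNGAA was found in 3 of the 25, *Gfap*, *Socs3* and *Lrrc2*, and in 8.3% of all 32851 windows. The PU.1 motif GAGGAAGT was found in 3, *C1qc*, *Ctss* and *Cd53*, and in 3.2% of all windows, and the interferon element, GAAA and again GAAA with 2 bases between, in 2, *Ctss* and *B2m*, and in 3.44%. The motif of NF-kappaB, GGGA and TTTCC with any base between, was found in *Lrrc2* and *B2m* and in 0.411% of all windows, and overlaps the STAT match by some bases in *Lrrc2*. AP-1, TGANTCA, stood in 2 of the 25 windows and in 7.81% of all; C/EBP, TTGCNNAA, in 2 and in 10.8%; and CRX, TAATCC, in 2 and in 7.06%, with a further match in the lower gene *Nr2f2*. A match describes the letters of a window and is neither a site nor a cause. The windows of *Gfap* (chr11:102897151-102897450, minus strand) and *Socs3* (chr11:117969317-117969616, minus strand) are shown because both genes are known targets of Stat3 and were higher together with it, and those of *Ctss* (chr3:95526536-95526835, plus strand) and *B2m* (chr2:122147437-122147736, plus strand) as examples from the phagocyte and the MHC class I lists. They run 5′ to 3′ on the strand of the gene, and capitals mark the STAT match in *Gfap* and *Socs3*, the PU.1 match on the opposite strand in *Ctss* and the interferon element in *B2m*.
Gfap: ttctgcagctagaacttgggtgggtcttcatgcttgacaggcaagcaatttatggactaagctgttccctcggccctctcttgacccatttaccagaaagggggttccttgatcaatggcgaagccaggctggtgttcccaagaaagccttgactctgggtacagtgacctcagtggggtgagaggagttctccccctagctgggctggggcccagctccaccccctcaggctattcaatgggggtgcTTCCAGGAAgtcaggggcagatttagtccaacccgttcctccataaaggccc
Socs3: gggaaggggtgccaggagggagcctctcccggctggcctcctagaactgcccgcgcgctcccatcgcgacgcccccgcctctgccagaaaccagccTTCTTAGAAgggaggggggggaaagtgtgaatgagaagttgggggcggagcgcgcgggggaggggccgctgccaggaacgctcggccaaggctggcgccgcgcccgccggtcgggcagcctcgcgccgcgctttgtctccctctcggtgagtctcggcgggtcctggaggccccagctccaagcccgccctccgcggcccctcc
Ctss: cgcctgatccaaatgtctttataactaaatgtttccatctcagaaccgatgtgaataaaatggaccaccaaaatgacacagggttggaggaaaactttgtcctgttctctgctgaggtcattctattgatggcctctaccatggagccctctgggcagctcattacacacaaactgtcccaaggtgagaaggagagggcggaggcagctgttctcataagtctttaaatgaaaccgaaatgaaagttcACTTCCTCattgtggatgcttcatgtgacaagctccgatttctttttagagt
B2m: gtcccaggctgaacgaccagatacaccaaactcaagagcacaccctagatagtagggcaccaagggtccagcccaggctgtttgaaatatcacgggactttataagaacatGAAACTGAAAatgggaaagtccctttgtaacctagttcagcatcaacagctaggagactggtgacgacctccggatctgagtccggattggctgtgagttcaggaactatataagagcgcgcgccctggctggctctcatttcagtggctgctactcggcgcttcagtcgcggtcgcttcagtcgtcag

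The metallothioneins *Mt1* and *Mt2*, small metal-binding proteins of oxidative stress, did not pass. *Mt1* read 10.95 and 10.93 on the superior and 11.54 and 11.61 on the inferior arrays (difference 0.63, adjusted p = 0.0603). *Mt2* read 9.99 and 10.28 on the superior and 11.05 and 11.21 on the inferior arrays (difference 1.00, adjusted p = 0.0641). Both inferior arrays were higher for each. Of 27 genes of metallothioneins and antioxidants 0 passed, and the median was 0.11. Without overlap, 15 were higher and 2 lower (55.6% and 7.41%, against 20.4% and 17.5% of all genes). In the control retina the median was 0.10, with 9 higher and 0 lower without overlap, against 3660 and 3207 of all 19938 genes.

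Rod genes had slightly lower values in the exposed inferior retina, and none passed the test. Of 26 genes of rod photoreceptors, the inferior arrays lay below the superior arrays without overlap for 20 (76.9%), against 17.5% of all genes. They lay above for 0, against 20.4% of all genes, and the median was -0.21. In the control retina 10 of the 26 were lower and 0 higher without overlap, with a median of -0.05. Of all 19938 genes, 3207 were lower and 3660 higher there. *Nrl*, the transcription factor that commits photoreceptors to the rod fate, read 10.53 and 10.63 on the superior and 10.19 and 10.11 on the inferior arrays (difference -0.42, adjusted p = 0.208). *Cnga1*, a subunit of the rod channel gated by cyclic GMP, read 12.05 and 11.95 on the superior and 11.84 and 11.44 on the inferior arrays (difference -0.36, adjusted p = 0.535). *Gnat1*, the rod transducin, overlapped between the regions, with 14.26 and 14.21 on the superior and 14.23 and 14.08 on the inferior arrays. Much of the shift came from 1 array, since the level of the list was 0.06 and 0.04 on the superior arrays, -0.02 on hyperoxia inferior replicate 1 and -0.29 on hyperoxia inferior replicate 2, and the median was -0.10 without the latter and -0.34 without the former.

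Among 18 cone genes, *Gnb3*, the beta subunit of cone transducin, was higher in the exposed inferior retina and 0 were lower. The shares over all genes were 0.155% and 0.015%. The median was 0.04, or -0.06 without hyperoxia inferior replicate 1. Without overlap, 5 were higher and 3 lower (27.8% and 16.7%, against 20.4% and 17.5% of all genes). *Gnb3* read 11.39 and 11.33 on the superior and 12.00 and 12.05 on the inferior arrays, a difference of 0.66 (standard error 0.08, adjusted p = 0.0335), against -0.01 in the control retina, and it is in the study's tables. Its transcript is also made by some bipolar cells. *Arr3*, the cone arrestin, read 11.06 and 10.88 on the superior and 10.66 and 10.54 on the inferior arrays, a difference of -0.37 (adjusted p = 0.323), and was at -0.33 in the control retina.

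**Figure D4:**
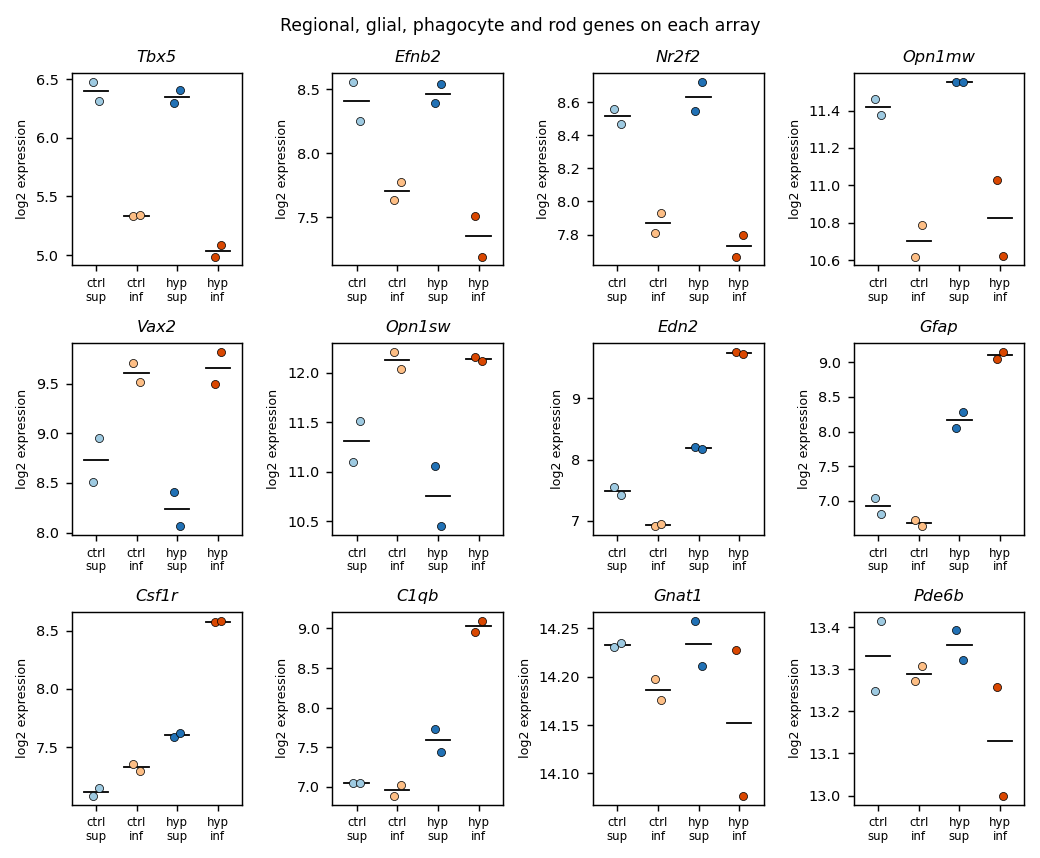
Log2 expression (vertical axes) of 12 genes on each of the 8 arrays by group (horizontal axes, ctrl for control and hyp for hyperoxia, sup for superior and inf for inferior); points are single arrays, with replicate 1 at the left of each pair, and lines are group means. *Tbx5*, *Efnb2* and *Nr2f2* are low in the inferior retina of both conditions, *Edn2*, *Gfap*, *Csf1r* and *C1qb* are highest on the exposed inferior arrays, and *Pde6b*, a subunit of the rod phosphodiesterase, is lowest on an exposed inferior array.

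Of the remaining called genes, *Prtg*, a membrane protein of the developing nervous system, was higher in the inferior retina by 0.99 (adjusted p = 0.0117). *Lrrc2*, a leucine-rich repeat protein, read 10.23 and 10.26 on the superior and 11.19 and 11.16 on the inferior arrays (difference 0.93, adjusted p = 0.0204). Replicates of both genes differed by 0.043 or less within each exposed region. *Slc25a37*, which imports iron into mitochondria, differed by 0.82 (adjusted p = 0.0268) and *Klhl29*, a kelch-like protein, by 0.79 (adjusted p = 0.0311).

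*Ccdc180*, a coiled-coil protein gene, accounts for 1 of the 4 lower probe sets. Probe set 10504658 read 9.21 and 9.24 on the superior and 8.52 and 8.40 on the inferior arrays, a difference of -0.76 (standard error 0.09, adjusted p = 0.0268), with a control difference of 0.04. The array has 27 probe sets with this symbol, of which 24 had a difference below 0, 17 were lower without overlap and this 1 passed the test. The probe set with the highest mean, which stands for the gene elsewhere, had a difference of -0.53 (adjusted p = 0.208). The 8 probe sets whose identifiers run from 10504656 to 10504670 had differences from -0.76 to -0.44, while the other 19 ranged from -0.33 to 0.37; this run was picked out after its values were seen.

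Tissue around the neural retina differed among the samples. The level of 24 genes of the retinal pigment epithelium was 0.27 and 0.28 on the exposed superior and 0.01 and 0.12 on the exposed inferior arrays, and from -0.57 to 0.23 on the control arrays. In the exposed retina 0 of the 24 passed, 4 were higher and 11 lower without overlap (16.7% and 45.8%, against 20.4% and 17.5% of all genes), and *Pmel*, a protein of pigment granules, read 8.46 and 9.16 on the superior and 6.92 and 8.45 on the inferior arrays. With this level as a covariate, 7 probe sets passed in place of 40, among them *Edn2* (adjusted p = 0.0138), *Tbx5* (adjusted p = 0.037), *C1qb* (adjusted p = 0.037), *C1qa* (adjusted p = 0.0479), *C1qc* (adjusted p = 0.0482), *Ly86* (adjusted p = 0.037) and *Csf1r* (adjusted p = 0.0482), all with the sign they had without it. The level of 24 lens genes was -0.45 and -0.24 on the exposed superior and -0.48 and 0.03 on the exposed inferior arrays, and it reached 1.77 on control inferior replicate 2. Of the lens genes 0 passed in the exposed retina, and with the lens level as a covariate 33 probe sets passed. The part of these tissues in the differences was not tested beyond these fits.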

How the data were processed

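Total RNA of 8 samples was hybridized to Affymetrix Mouse Gene 1.0 ST arrays. Per the labels and methods, the authors used Partek for RMA background correction and median polish, and deposited the summaries as log2 values; the software version and any step between arrays are not given in the sources used. The values were used as deposited. Symbols came from the platform annotation: 21789 probe sets had 1, 1621 several and 5443 none; 21698 matched RefSeq (GRCm38.p6) by Entrez ID, which changed 0 symbols. Each gene was read from its probe set of highest mean. Group means were fitted over all arrays with limma 3.58.1 in R 4.3.3 (4 residual and 4.47 prior degrees of freedom), with Benjamini-Hochberg adjustment across 28853 probe sets and a threshold of 0.05. Script settings were tested on simulated data.

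The samples, 29 gene lists (616 of 680 entries measured), motifs and tests were chosen with earlier results of these data known. Genes to name were those past the test, the 10 highest and 10 lowest differences without overlap at an unadjusted p under 0.01, and the 3 leading members of each list, of which part is given; *Spi1*, *Tmem119*, *Osmr*, *Il6st*, *Lif*, *Lifr*, *Osm*, *Ednrb*, *Ece1*, *Ece2*, *C3ar1*, *C4b*, *Cfi*, *Psmb8*, *Tap1*, *Arr3*, *Pde6b*, *Gnat1*, *Vegfa* and the blood cell markers were chosen as known genes after their values were seen. Settings tried besides this were the replicate block, covariates for pigment epithelium, lens and phagocyte levels, leaving out each array, exposed arrays only, probe sets with 1 symbol, averaged probe sets per gene, probe sets with a mean of at least 6, quantile normalization, centring on the median, the methods' t-test, a 2-sample test, a robust prior and a variance trend.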

Additional observations from a re-analysis of the deposited data

Results flagged for a closer look

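*Edn2*, which encodes endothelin-2, was the gene whose regional difference was found by limma's interaction test to differ between exposed and control retinas. The exposed difference of 1.56 exceeded the control difference of -0.56 by 2.11 (log2 scale), with a standard error of 0.12 and an adjusted p = 0.00186 over all 28853 probe sets. Both exposed inferior arrays were higher than both exposed superior arrays, and both control inferior arrays were lower than both control superior arrays. Groups of 2 arrays are too small for a search for single arrays that stand apart.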

How the results depend on the processing

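Each of the 40 probe sets kept its sign in every fit on single probe sets that tested it. The count of 40 was 70 with dim probe sets left out, 84 with a variance trend (79.8% of them higher, against 90%), 22 with only the exposed arrays, 7 with the pigment epithelium level as a covariate, 0 with the phagocyte level as one, and 0 by the methods' t-test over all arrays and 0 by a 2-sample test (2156 and 1717 at an unadjusted p under 0.05); it lay between 33 and 49 under the other alternatives that kept all arrays, the replicate block apart. The phagocyte level hardly varied within the exposed groups, so that fit had little left to estimate a difference from, and it is a void test. With 1 array left out the count ran from 0 to 69, and without hyperoxia superior replicate 1 it held 17 higher and 52 lower probe sets. In a group left with 1 array, that array is assumed to vary like those of the other groups. The control comparison gave 0 to 53 and the interaction 1 to 30, both highest without control inferior replicate 1, and the interaction gave 2 with dim probe sets left out; the cause was not tested. With the replicate number as a block, 25 probe sets passed, 23 of them among the 40. Of the 34 named genes 13 did not pass with it (*Gfap*, *Chil1*, *Lcn2*, *Stat3*, *Socs3*, *B2m*, *Cd53*, *Fcrls*, *Vax2*, *Efnb2*, *Gnb3*, *Klhl29* and *Slc25a37*), with an adjusted p of 0.0818 for *Gfap* and 0.101 for *Lcn2*, and 3 of the 6 glial stress genes passed. The deviations of same-numbered exposed arrays correlated at 0.10 and those of other groups at -0.02 to 0.14. These values cannot show whether same-numbered samples share animals. The block fits 1 shift common to all groups, not pairs of regions within a condition. The numbers were not taken as pairs, and pairing was not tested.

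Signs turned for 15 genes that had not passed, most of them only in the fit with the phagocyte level. That fit is a void test (above), so its values are no measure of how stable a gene is. With the phagocyte level as a covariate *Snord37* was at 0.28, *Olfml3* -0.12, *Mx2* -0.31, *Ccl3* -0.45, *Ccl12* -0.40, *S100a6* -0.046, *Bid* -0.21, *Tac1* 0.028, *Kcnj8* 0.12, *Crygc* -6.98, *Crygd* -8.10, *Cryab* -4.18 and *Slc4a1* -0.25. With 1 array left out the lens crystallin *Crygc* ran from -0.037 to 1.16, *Crygd* from -0.070 to 0.95 and the red cell gene *Slc4a1* from -0.17 to 0.35, each lowest without hyperoxia inferior replicate 2. *Alas2* ran from -0.13 to 0.029, highest without hyperoxia superior replicate 2 and also above 0 without hyperoxia inferior replicate 1, and *Nyx* was at 0.020 with the mean of its probe sets.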

Other observations

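None of the listed genes of inner retinal neurons passed limma's test. Of 19 genes of retinal ganglion cells, the output neurons, 0 passed, 9 were higher and 0 lower without overlap (47.4% and 0%, against 20.4% and 17.5% of all genes), and the median difference was 0.16, or 0.061 without hyperoxia superior replicate 1; *Thy1*, a surface protein of these cells, read 9.64 and 9.84 on the superior and 9.98 and 10.22 on the inferior arrays (adjusted p = 0.456). The level of this list was -0.27 and -0.06 on the exposed superior arrays, so that hyperoxia superior replicate 1 lay lowest. Of 22 genes of amacrine and horizontal cells, interneurons of the retina, 0 passed and the median was 0.11, or 0.0012 without hyperoxia superior replicate 1; *Sst*, the peptide somatostatin, read 7.24 and 7.20 on the superior and 7.99 and 8.50 on the inferior arrays (difference 1.03, adjusted p = 0.0603), with a control difference of 0.74. Of 18 bipolar genes 0 passed, with a median of 0.08, or 0.019 without hyperoxia inferior replicate 2. Of 19 Muller cell genes 0 passed, with a median of 0.09 that was -0.029 without hyperoxia superior replicate 1, and *Glul*, the glutamine synthetase that clears glutamate, read 12.74 and 12.98 on the superior and 12.35 and 12.54 on the inferior arrays (difference -0.41, adjusted p = 0.354), where both inferior arrays were lower.

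Of 23 targets of hypoxia 0 passed, 2 were higher and 9 lower without overlap (8.7% and 39.1%, against 20.4% and 17.5% of all genes), and the median was -0.07; *Slc16a3*, which exports lactate, had a difference of -0.33 (adjusted p = 0.481) and *Vegfa*, the vascular growth factor, one of 0.02 (95% interval -0.22 to 0.25). Of 25 endothelial genes 0 passed, with a median of -0.06, or 0.04 without hyperoxia superior replicate 2; *Vcam1*, an adhesion molecule of inflamed vessels, had a difference of 0.49 (adjusted p = 0.331) and *Clec14a*, a lectin of endothelium, one of -0.45 (adjusted p = 0.304). Of 14 genes of pericytes and smooth muscle 0 passed, with a median of -0.05, and of 27 genes of cell death 0 passed, with a median of 0.05. Of 19 genes of choroid and sclera, 13 of ciliary body and iris and 3 of erythrocytes 0 passed, with medians of 0.01, -0.05 and -0.05.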
